A study of Homo sapiens with 19 samples.

Results

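STAT3 siRNA was compared with a control siRNA in MDA-MB-231 cells that carried no vector, in 6 of the 19 samples of the series. The 6 libraries were taken by their titles: 4 received the control siRNA (NC, replicates 1 to 4) and 2 the siRNA against STAT3 (siSTAT3, replicates 1 and 2). MDA-MB-231 is an established human line of triple-negative breast cancer, a breast cancer without estrogen receptor, progesterone receptor and amplified HER2. Every group grew in L15 with 10% serum, and every group, NC included, was exposed to 30 nM siRNA with Lipofectamine RNAiMAX before its poly(A) RNA was sequenced. The labels give neither the number of siRNA sequences per target nor the time after transfection, and they leave unsaid whether replicates were separate cultures, so a p-value reflects the spread of these libraries alone, which may be technical. Set beside them are 2 libraries with siRNA against HMGN5 (siHMGN5), and 3 libraries each of cells that carried an empty lentiviral vector and received control siRNA (NC_Vec) or STAT3 siRNA (siSTAT3_Vec).

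STAT3 is a transcription factor that waits in the cytoplasm until a JAK kinase, bound to a cytokine receptor, phosphorylates it. Interleukin 6, LIF and oncostatin M signal to it through receptors that share the chain gp130 (IL6ST), and SOCS3, itself a STAT3 target, closes the loop by inhibiting JAK. In breast cancer cells STAT3 is known for driving genes of survival, proliferation and invasion. HMGN5, the other protein of the study, is a nucleosome-binding protein that loosens chromatin.

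The measurement was an estimated read count for each of 175775 Ensembl transcripts per library, expressed here as CPM, counts scaled to the size of the library. No table here links a transcript to its gene, so genes are named through a list of 162 genes in 17 groups, 1 transcript per gene. Their transcript IDs were written from knowledge and checked only in part, by length against the gene's span in RefSeq (all but JUN fitted) and by the response of STAT3 and HMGN5 to their own siRNA. A value therefore describes 1 transcript, and other isoforms of the gene may behave differently. Of the 162 transcripts, 161 are in the files and 143 had enough reads to be tested. NC libraries held 19331347 to 19509422 estimated reads and siSTAT3 libraries 19203646 to 19218763, and 3 reads stood for 0.154 to 0.156 CPM. This limit covers counting error only. Of the markers of this mesenchymal-like line, VIM lay at 2101, 2197, 2121 and 2132 CPM in NC and 1941 and 1954 CPM in siSTAT3, and AXL at 574, 611, 633 and 638 CPM in NC and 529 and 526 CPM in siSTAT3, while ESR1 had 0 reads and PGR stayed at or below 0.103 CPM. EPCAM lay between 1.02 and 2.45 CPM, CDH1 was at 0 outside siSTAT3 replicate 2 (0.728 CPM) and ERBB2 outside NC replicate 2 (5.16 CPM). The surface protein CD274, also typical of the line, had 26.02, 26.7, 35.4 and 23.3 CPM in NC and 0 and 17.97 CPM in siSTAT3. Markers of T cells (CD3E), red cells (HBB) and hepatocytes (ALB) and the fibroblast marker COL1A2 were at 0 in all 6 libraries, while COL1A1 lay at 16.9, 18.6, 19.6 and 19.4 CPM in NC and 24.7 and 26.04 CPM in siSTAT3 and the macrophage marker CD68 at 43.7, 49.3, 26.05 and 30.99 CPM in NC and 68.5 and 59.7 CPM in siSTAT3 (neither called; what part other cells could have in the results was not tested).

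The NC libraries fell into 2 pairs. The median chi-square between libraries, over transcripts with at least 50 reads, was 2.64 between NC replicates 1 and 2 and 3.11 between replicates 3 and 4, against 7.66 to 7.87 across the pairs and 2.45 between the siSTAT3 libraries. A change is therefore said to hold only where it passed the test with all 4 NC libraries and, in the same direction, against NC replicates 1 and 2 and against NC replicates 3 and 4. The test was the edgeR quasi-likelihood test on all transcripts, with Benjamini-Hochberg adjustment and a threshold of 0.05. Of 74346 transcripts tested, 4.28% were called: 1011 were higher (1.36%) and 2170 lower (2.92%). Of the higher ones 790 (78.1%) held against both pairs, 39 only against replicates 1 and 2, 120 only against replicates 3 and 4, and 62 against neither. Of the lower ones 1988 (91.6%) held against both, 17 and 132 against 1 pair in the same order, and 33 against neither. Over all transcripts, 3.74% held, 1.06% higher and 2.67% lower.

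Of the 143 listed transcripts tested, 21 were higher and 20 lower, and 19 of each held. Their median log2 fold change was -0.12, against 0 over all transcripts tested. At a mean of 10 CPM or more, the calls were 7 higher and 17 lower among 96 nuclear listed transcripts, where 14.1% of all transcripts at that level were called (4.23% higher and 9.83% lower). Where the text says that the libraries did not overlap, this was also so for 14.3% of all transcripts with siSTAT3 lower and 16.6% with siSTAT3 higher. The calls are given below by the role of the genes. Each list is short, and its counts are to be read beside the shares over all transcripts. In bulk RNA fewer cells with a transcript and less of it per cell cannot be told apart.

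**Figure D1:**
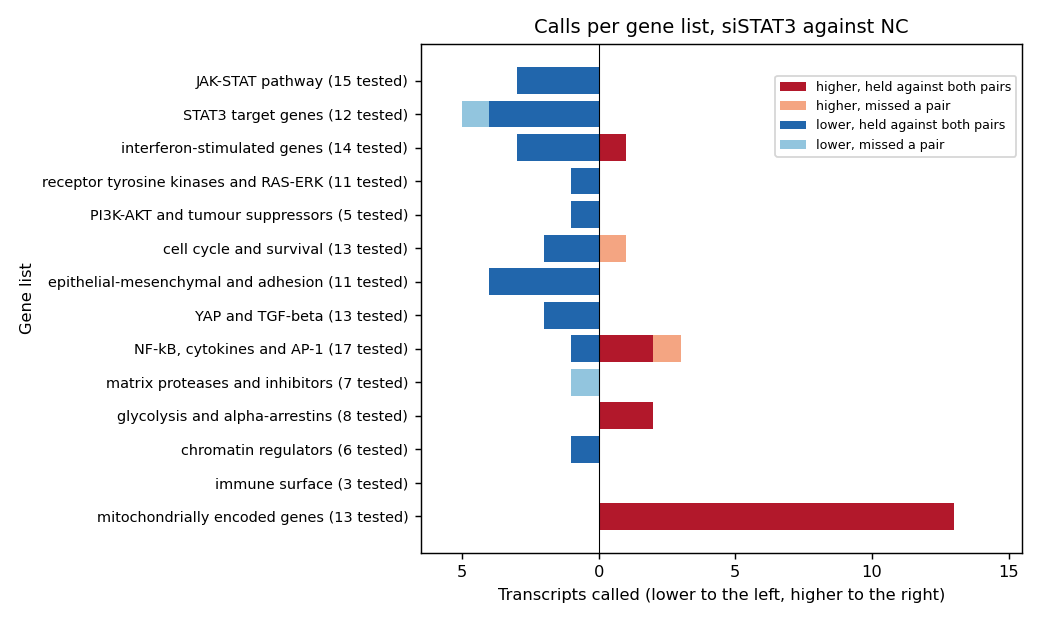
Number of listed transcripts called in siSTAT3 against NC, per gene list; bars to the left are lower and bars to the right higher in siSTAT3, dark where the call held against both NC pairs and pale where it missed a pair. All 13 mitochondrially encoded transcripts were higher. Most calls in the nuclear lists were lower, as were 2170 of the 3181 calls over all transcripts. A gene on 2 lists is counted in both.

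The targeted transcript fell in both siSTAT3 libraries. STAT3 (ENST00000264657.9; gene at chromosome 17, 42313324 to 42388442, GRCh38.p14) lay at 117, 118, 102 and 109 CPM in NC replicates 1 to 4 and 21.2 and 18.9 CPM in siSTAT3 replicates 1 and 2. The groups were far apart, with means of 112 ± 7.55 CPM over the NC libraries (SD, n = 4) and 20.04 ± 1.58 CPM over the siSTAT3 libraries (SD, n = 2). This was 5.57-fold lower (log2 fold change -2.48 ± 0.10 (SE), adjusted p = 0.000688), and -2.55 and -2.40 on the log2 scale against the first and the second NC pair. In the siHMGN5 libraries, which share these NC libraries as controls, STAT3 stood at 171 and 168 CPM (log2 fold change 0.60 ± 0.09, adjusted p = 0.0202; 3.39% of all transcripts were called in that comparison). The fall of STAT3 with its siRNA, and of HMGN5 with its own, also checks that these transcript IDs are read correctly.

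HMGN5 itself was lower after STAT3 siRNA. Its transcript (ENST00000358130.6; chromosome X, 81113699 to 81201913) lay at 7.47, 8.29, 11.9 and 11.3 CPM in NC replicates 1 to 4 and 1.01 and 1.66 CPM in siSTAT3 replicates 1 and 2. That is 7.30-fold lower (log2 fold change -2.86 ± 0.41 (SE), adjusted p = 0.0156), with -2.56 and -3.11 against the NC pairs. The siHMGN5 libraries had 0.201 and 0.360 CPM of it (log2 fold change -5.09 ± 0.47, adjusted p = 0.00531). The call rested on both siSTAT3 libraries: without replicate 1 or 2 the adjusted p rose to at most 0.115. Of the other 5 chromatin regulators listed none was called, the acetyltransferase EP300 for example having 178, 204, 197 and 212 CPM in NC and 230.0 and 222 CPM in siSTAT3 (log2 fold change 0.19, adjusted p = 0.318).

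**Figure D2:**
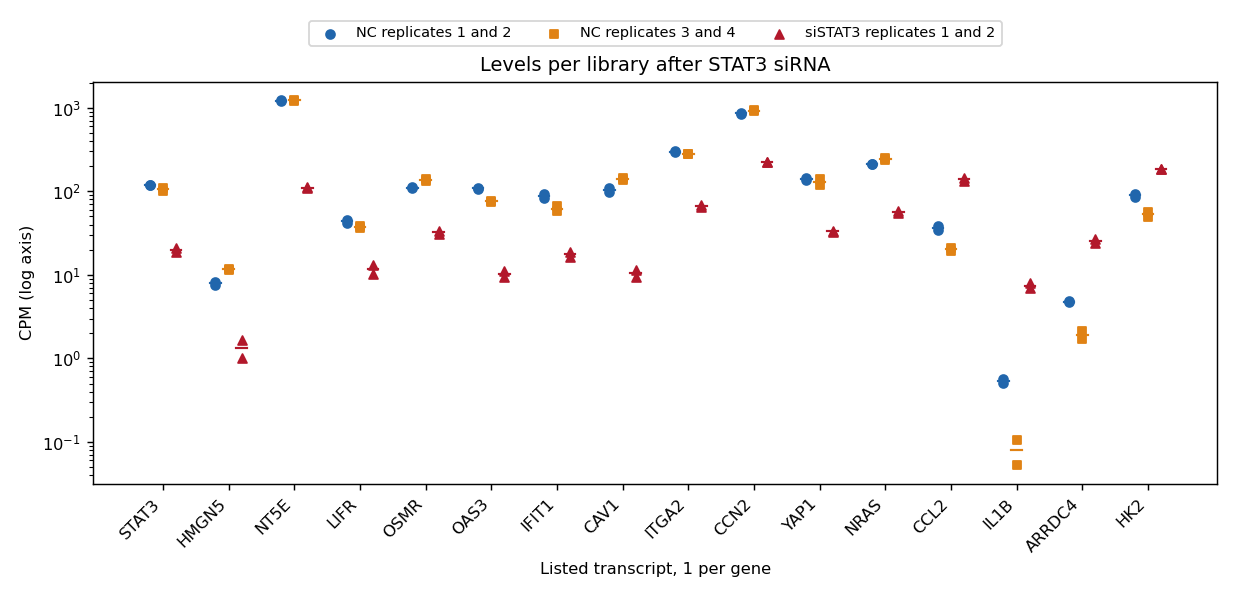
CPM on a log axis of 16 listed transcripts that held, in NC replicates 1 and 2 (blue circles), NC replicates 3 and 4 (orange squares) and siSTAT3 replicates 1 and 2 (red triangles); points are libraries and short lines are means of 2 libraries. The siSTAT3 points of the first 12 transcripts lie below all NC points and those of CCL2, IL1B, ARRDC4 and HK2 above them, and the NC pairs differ most for IL1B.

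Among 15 JAK-STAT transcripts tested, 3 were lower, all of which held, and none was higher (median log2 fold change 0.10). Besides STAT3 these were receptor chains for the gp130 cytokines. LIFR, which binds LIF beside gp130 (ENST00000263409.8), had 44.9, 42.2, 36.3 and 38.02 CPM in NC and 13.2 and 10.1 CPM in siSTAT3 and was 3.47-fold lower (log2 fold change -1.79 ± 0.17 (SE), adjusted p = 0.00438). OSMR, the specific chain of the oncostatin M receptor (ENST00000274276.7), had 108, 113, 141 and 134 CPM in NC and 33.7 and 30.9 CPM in siSTAT3 and was 3.84-fold lower (log2 fold change -1.94 ± 0.14 (SE), adjusted p = 0.00205). In both cases the siSTAT3 libraries lay below every NC library. The chains and kinases around them did not pass. IL6ST, encoding gp130, showed how far the control pairs can differ, with 60.3, 62.5, 28.4 and 17.7 CPM in NC and 57.6 and 48.9 CPM in siSTAT3 (log2 fold change 0.33, adjusted p = 0.838). The siSTAT3 values lay near the first NC pair and exceeded the second, giving -0.21 (adjusted p = 0.722) and 1.21 (adjusted p = 0.0298). JAK1, a kinase bound to gp130, had 139, 142, 108 and 104 CPM in NC and 133 and 132 CPM in siSTAT3 (log2 fold change 0.10, adjusted p = 0.831). The transcript listed for IL6 had 0 reads in all 6 libraries, which allows up to 0.156 CPM in each.

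SOCS3, the feedback inhibitor, was lower against each pair but not with all 4 NC libraries. It lay at 44.7, 43.9, 81.8 and 83.8 CPM in NC replicates 1 to 4 and 33.2 and 34.4 CPM in siSTAT3 replicates 1 and 2 (log2 fold change -0.91 ± 0.32 (SE), adjusted p = 0.214). Both siSTAT3 libraries were below every NC library, and the log2 fold changes against the pairs were -0.39 (adjusted p = 0.0369) and -1.29 (adjusted p = 0.000968). The NC pairs themselves differed nearly as much as the treatment. CCND1, encoding cyclin D1, had the largest change among the target transcripts not called, with the same pattern: 397, 411, 628 and 632 CPM in NC and 261 and 259 CPM in siSTAT3 (log2 fold change -0.99 ± 0.23 (SE), adjusted p = 0.0711), and -0.64 (adjusted p = 0.00112) and -1.28 (adjusted p = 0.000232) against the pairs.

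Of the 12 tested transcripts on a list of textbook STAT3 target genes, 5 were lower and none higher (median log2 fold change -0.88), and 4 of the 5 held, STAT3 itself included. ICAM1, an adhesion receptor for leukocytes (ENST00000264832.7; chromosome 19, 10271120 to 10286615), lay at 7.67, 7.61, 11.5 and 12.1 CPM in NC replicates 1 to 4 and 1.70 and 1.28 CPM in siSTAT3 replicates 1 and 2, 6.53-fold lower (log2 fold change -2.70 ± 0.32 (SE), adjusted p = 0.00889). BIRC5, encoding the inhibitor of apoptosis survivin (ENST00000350051.7), had 52.2, 58.99, 57.4 and 63.9 CPM in NC and 25.6 and 22.6 CPM in siSTAT3, 2.41-fold lower (log2 fold change -1.27 ± 0.21 (SE), adjusted p = 0.0262). FOS, an immediate early gene, was called lower too, but its mean was under 2 CPM, with 0.915, 0.991, 1.63 and 1.68 CPM in NC and 0.106 and 0.160 CPM in siSTAT3. TIMP1, an inhibitor of matrix metalloproteinases, was lower with all 4 NC libraries (log2 fold change -0.84 ± 0.16 (SE), adjusted p = 0.0367) but missed the first pair, with 63.1, 74.3, 64.5 and 74.3 CPM in NC and 34.8 and 42.3 CPM in siSTAT3 and -0.83 (adjusted p = 0.0586) and -0.85 (adjusted p = 0.0452) against the pairs. HIF1A, the oxygen-regulated transcription factor, had the smallest change on the list, -0.01, over NC values that ranged from 127 to 411 CPM. The call of TIMP1 ended without any 1 of the 6 libraries (adjusted p up to 0.246) and that of BIRC5 without NC replicate 2, 3 or 4 or either siSTAT3 library (up to 0.188). Leaving out either siSTAT3 library ended the call of ICAM1 (up to 0.08).

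Interferon-stimulated transcripts moved in both directions. Of 14 tested, 3 were lower and 1 was higher, and all 4 held (median log2 fold change -0.12). OAS3, an enzyme that senses double-stranded RNA and activates RNase L (ENST00000228928.11), lay at 106, 110.2, 74.4 and 77.6 CPM in NC replicates 1 to 4 and 9.52 and 11.01 CPM in siSTAT3 replicates 1 and 2. It was 8.97-fold lower (log2 fold change -3.16 ± 0.22 (SE), adjusted p = 0.00192). IFIT1, which binds foreign RNA (ENST00000371804.3), had 82.6, 92.6, 66.1 and 57.9 CPM in NC and 16.4 and 18.7 CPM in siSTAT3. It was 4.26-fold lower (log2 fold change -2.09 ± 0.22 (SE), adjusted p = 0.00599). Its partner in that complex, IFIT3 (ENST00000371818.8), had 60.1, 61.8, 70.9 and 66.6 CPM in NC and 26.1 and 29.4 CPM in siSTAT3 and was 2.34-fold lower (log2 fold change -1.23 ± 0.10 (SE), adjusted p = 0.00325). IFI44L, another interferon-induced gene (ENST00000370751.9), went the other way with 8.89, 8.81, 4.22 and 2.99 CPM in NC and 25.5 and 30.96 CPM in siSTAT3, 4.53-fold higher (log2 fold change 2.18 ± 0.44 (SE), adjusted p = 0.0461), and 1.67 and 2.97 on the log2 scale against the NC pairs. Both directions thus occurred within 1 gene group, with no overlap between the libraries of the 2 treatments for any of the 4. The remaining 10 did not pass; the largest change among them was IFI44, which had 13.01 and 26.3 CPM in the first NC pair and 0 in the other 4 libraries. The call of IFI44L ended without any 1 of the 6 libraries (adjusted p up to 0.226), and that of IFIT1 without either siSTAT3 library (up to 0.06).

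The promoters of the 4 interferon-stimulated genes called are shown because that group is classically driven through a shared element, the interferon-stimulated response element. STAT3 acts through a palindromic site. ICAM1 and LIFR were picked because, among the listed lower genes that held, only their windows contained the core of that site. Each sequence holds the 250 bases before the gene start in RefSeq (GRCh38.p14), which need not be the start of the listed transcript. For LIFR the start used lies inside the gene's span in that annotation, so its window is not at the outer end of the gene. Capitals mark, on either strand, the core of the response element in the first 4 (GAAA, any 2 bases, GAAA) and the core of the STAT site, TTCNNNGAA, in the last 2; no promoter shown holds both.
OAS3, chr12:112938224-112938473, plus strand: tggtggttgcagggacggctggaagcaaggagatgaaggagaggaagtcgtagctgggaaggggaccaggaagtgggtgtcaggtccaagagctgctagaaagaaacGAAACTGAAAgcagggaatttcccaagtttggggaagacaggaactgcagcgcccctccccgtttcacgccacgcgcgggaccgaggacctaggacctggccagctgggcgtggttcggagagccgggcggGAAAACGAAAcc
IFIT1, chr10:89392373-89392622, plus strand: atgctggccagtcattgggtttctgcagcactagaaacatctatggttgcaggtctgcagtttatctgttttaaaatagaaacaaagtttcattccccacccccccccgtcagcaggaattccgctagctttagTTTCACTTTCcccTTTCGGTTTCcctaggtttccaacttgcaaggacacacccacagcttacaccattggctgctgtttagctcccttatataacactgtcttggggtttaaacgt
IFIT3, chr10:89327747-89327996, plus strand: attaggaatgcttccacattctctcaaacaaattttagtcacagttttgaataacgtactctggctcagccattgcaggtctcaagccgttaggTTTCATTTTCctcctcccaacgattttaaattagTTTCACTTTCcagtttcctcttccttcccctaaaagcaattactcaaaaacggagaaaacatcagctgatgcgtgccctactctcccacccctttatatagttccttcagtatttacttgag
IFI44L, chr1:78620198-78620447, plus strand: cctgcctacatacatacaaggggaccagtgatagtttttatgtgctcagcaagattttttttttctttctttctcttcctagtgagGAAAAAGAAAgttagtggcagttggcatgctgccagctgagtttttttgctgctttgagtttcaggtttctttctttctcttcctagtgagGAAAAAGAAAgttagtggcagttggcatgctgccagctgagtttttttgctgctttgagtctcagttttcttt
ICAM1, chr19:10270870-10271119, plus strand: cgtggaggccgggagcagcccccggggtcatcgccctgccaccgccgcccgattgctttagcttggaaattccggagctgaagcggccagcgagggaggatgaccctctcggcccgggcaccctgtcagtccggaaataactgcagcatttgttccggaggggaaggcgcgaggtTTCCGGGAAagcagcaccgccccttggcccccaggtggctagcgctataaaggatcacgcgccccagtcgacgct
LIFR, chr5:38595406-38595655, minus strand: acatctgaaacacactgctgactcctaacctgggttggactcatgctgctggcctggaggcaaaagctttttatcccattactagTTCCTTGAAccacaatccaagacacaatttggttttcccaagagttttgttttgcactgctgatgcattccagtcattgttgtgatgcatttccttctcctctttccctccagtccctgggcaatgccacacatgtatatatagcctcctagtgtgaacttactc
The response element core stood 2 times in each of the first 4 promoters, both in the 3 genes that were lower and in IFI44L, which was higher. TTCNNNGAA stood once in ICAM1 and once in LIFR, both lower, and IL1B, which was higher, also held it. Over the window of 250 bases before to 50 after the start, the response element core was present in 1255 of 35116 RefSeq promoters (3.57%) and TTCNNNGAA in 2689 (7.66%). Among 18 listed genes with a promoter that were lower and held, 3 had the first and 2 the second. Of 5 that were higher and held, 1 had the first (IFI44L) and 1 the second (IL1B). Of 80 listed genes not called, 8 had the first and 8 the second. The lists hold interferon-stimulated genes and STAT3 target genes by choice, so the share over all RefSeq promoters is not a like background. A match is a description of letters, not of binding.

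Lower calls included an integrin chain, a surface enzyme and coat proteins of caveolae, the small membrane pits formed by caveolins. On the list of epithelial-mesenchymal and adhesion genes 4 of 11 were lower, all of which held (median log2 fold change -0.25). None was higher and 7 were not called. NT5E, the ectonucleotidase CD73 that makes adenosine at the cell surface (ENST00000257770.7; chromosome 6, 85450083 to 85495784), lay at 1189.9, 1244, 1235 and 1214 CPM in NC replicates 1 to 4 and 111 and 110.1 CPM in siSTAT3 replicates 1 and 2. It was 11.04-fold lower (log2 fold change -3.46 ± 0.07 (SE), adjusted p = 3.56e-05), with -3.46 and -3.47 against the pairs. It was the listed transcript with the smallest adjusted p. CAV1, the main coat protein of caveolae (ENST00000341049.6), had 98.95, 110.1, 144 and 138 CPM in NC and 9.41 and 11.5 CPM in siSTAT3 and was 11.7-fold lower (log2 fold change -3.55 ± 0.22 (SE), adjusted p = 0.00149). Its partner CAV2 (ENST00000222693.4) had 60.1, 63.7, 61.2 and 54.8 CPM in NC and 18.4 and 19.7 CPM in siSTAT3 and was 3.14-fold lower (log2 fold change -1.65 ± 0.10 (SE), adjusted p = 0.00128). ITGA2, the alpha chain of a collagen receptor (ENST00000296585.9), had 301, 297, 278 and 279 CPM in NC and 68.3 and 65.2 CPM in siSTAT3 and was 4.32-fold lower (log2 fold change -2.11 ± 0.07 (SE), adjusted p = 0.000539). All 4 calls stood without any 1 of the 6 libraries. CAVIN1, which stabilises caveolae, was not called at 623, 635, 589.6 and 608 CPM in NC and 527 and 540.2 CPM in siSTAT3 (log2 fold change -0.20, adjusted p = 0.141).

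In the list of YAP and TGF-beta genes, 2 of 13 were lower and held (15.4%), and none was higher (median log2 fold change -0.29). Of all transcripts that averaged 10 CPM or more, 9.83% were lower. Whether this short list departs from that share was not tested. YAP1, the coactivator at the end of the Hippo pathway (ENST00000282441.9), lay at 145, 137, 117 and 139 CPM in NC replicates 1 to 4 and 32.96 and 33.6 CPM in siSTAT3 replicates 1 and 2, 4.04-fold lower (log2 fold change -2.01 ± 0.13 (SE), adjusted p = 0.00152). CCN2, a secreted protein often read as a YAP target (ENST00000367976.3), had 851, 860.1, 937 and 910.5 CPM in NC and 222 and 222 CPM in siSTAT3 and was 4.01-fold lower (log2 fold change -2.004 ± 0.07 (SE), adjusted p = 0.000539). Both calls stood without any 1 library. ANKRD1, another YAP target, shows why the pairs were kept apart. It lay at 503, 524, 2201 and 1928 CPM in NC and 649.5 and 647 CPM in siSTAT3, so the siSTAT3 libraries were above the first NC pair and below the second. The log2 fold changes were 0.34 (adjusted p = 0.0432) and -1.67 (adjusted p = 0.000474), and -0.99 with all 4 NC libraries (adjusted p = 0.539).

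Signalling genes of the RAS and PI3K pathways gave 2 lower transcripts and none higher, and both held. On the list of receptor tyrosine kinases and RAS-ERK genes 1 of 11 was lower (9.09%, median log2 fold change -0.22). On that of PI3K, AKT and tumour suppressors it was 1 of 5 (median -0.37). Over all transcripts tested 2.92% were lower, and 9.83% of those that averaged 10 CPM or more. The RAS-ERK share lay near the latter, and whether either list departs from it was not tested. NRAS, a RAS GTPase (ENST00000369535.4; chromosome 1, 114704469 to 114716771), lay at 209.6, 213, 248 and 235 CPM in NC replicates 1 to 4 and 58.1 and 55.2 CPM in siSTAT3 replicates 1 and 2. It was 3.99-fold lower (log2 fold change -1.998 ± 0.10 (SE), adjusted p = 0.000965), a change that stood without any 1 library. PIK3CA, a catalytic subunit of PI3K (ENST00000263967.3), had 41.1, 38.6, 49.2 and 43.3 CPM in NC and 19.03 and 16.7 CPM in siSTAT3 and was 2.41-fold lower (log2 fold change -1.27 ± 0.13 (SE), adjusted p = 0.00631). For both transcripts the siSTAT3 libraries lay below every NC library. The receptor EGFR had 690.2, 685, 655 and 664 CPM in NC and 648 and 614 CPM in siSTAT3 and was not called (log2 fold change -0.09, adjusted p = 0.491). The call of PIK3CA ended without siSTAT3 replicate 2 (adjusted p = 0.064).

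Of 13 cell cycle and survival transcripts, 2 were lower and held, BIRC5 above and CCNB1, and 1 was higher but missed a pair (median log2 fold change -0.24). CCNB1, the cyclin of mitotic entry (ENST00000256442.9), had 25.1, 30.3, 25.3 and 29.1 CPM in NC and 13.9 and 17.6 CPM in siSTAT3 and was 1.74-fold lower (log2 fold change -0.80 ± 0.15 (SE), adjusted p = 0.0376). CDKN1A, the cell cycle inhibitor p21 (ENST00000244741.9), had 20.99, 30.1, 30.7 and 31.2 CPM in NC and 48.5 and 51.97 CPM in siSTAT3 and was 1.78-fold higher with all 4 NC libraries (log2 fold change 0.83 ± 0.17 (SE), adjusted p = 0.0482). Against the pairs its log2 fold changes were 0.97 (adjusted p = 0.0324) and 0.70 (adjusted p = 0.0688), so it did not hold against the second. Both calls were near the threshold: that of CCNB1 ended without any 1 of the 6 libraries (adjusted p up to 0.243) and that of CDKN1A without any but NC replicate 1 (up to 0.268).

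Cytokine transcripts included the largest rise among the listed nuclear transcripts called. On the list of NF-kB, cytokine and AP-1 genes, 3 of 17 were higher, of which 2 held, and 1 (FOS) was lower (median log2 fold change 0.19). IL1B, the inflammatory cytokine interleukin 1 beta (ENST00000263341.6), lay at 0.508, 0.574, 0.105 and 0.0524 CPM in NC replicates 1 to 4 and 7.97 and 6.90 CPM in siSTAT3 replicates 1 and 2. It was 23.99-fold higher (log2 fold change 4.55 ± 0.85 (SE), adjusted p = 0.0358), from only 10, 11, 2 and 1 reads in NC replicates 1 to 4. The size depended on the controls, with log2 fold changes of 3.77 (adjusted p = 0.00774) and 6.45 (adjusted p = 0.00183) against the first and the second NC pair. CCL2, a chemokine that attracts monocytes (ENST00000225831.4; chromosome 17, 34255285 to 34257203), had 34.9, 38.1, 21.2 and 19.4 CPM in NC and 133 and 144 CPM in siSTAT3 and was 4.89-fold higher (log2 fold change 2.29 ± 0.30 (SE), adjusted p = 0.0112). The siSTAT3 libraries lay above every NC library for both. FOSL1, an AP-1 subunit (ENST00000312562.6), was higher with all 4 NC libraries (log2 fold change 0.60 ± 0.11 (SE), adjusted p = 0.0375) at 75.01, 75.002, 86.5 and 78.4 CPM in NC and 124 and 115 CPM in siSTAT3, but missed the second pair, with 0.67 (adjusted p = 0.0324) and 0.54 (adjusted p = 0.0511). NFKB1 and RELA, subunits of NF-kB, had log2 fold changes of 0.05 and 0.19 (adjusted p = 0.967 and 0.905). The call of CCL2 ended without either siSTAT3 library (adjusted p up to 0.0758), that of IL1B without any but NC replicate 4 (up to 0.163) and that of FOSL1 without any 1 library (up to 0.255).

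The proteases of matrix turnover gave 1 call of 7, TIMP1 (median log2 fold change -0.28). On 2 of these transcripts the NC pairs gave opposite calls. PLAU, the urokinase that activates plasmin, had 281, 267, 107 and 111 CPM in NC and 136 and 146 CPM in siSTAT3 and log2 fold changes of -0.96 (adjusted p = 0.00142) and 0.36 (adjusted p = 0.0153) against the pairs. MMP14, a membrane-bound metalloproteinase, had 160.3, 168, 94.2 and 101 CPM in NC and 122 and 129 CPM in siSTAT3 and -0.39 (adjusted p = 0.0287) and 0.36 (adjusted p = 0.0274). Together with ANKRD1 and the receptor TGFBR2, at 118, 124, 276 and 234 CPM in NC and 163 and 179.7 CPM in siSTAT3 and 0.50 (adjusted p = 0.0455) and -0.57 (adjusted p = 0.0242), these were 4 of the 143 listed transcripts, against 0.179% of all transcripts; the 4 were picked out after their values were seen. Over all transcripts, siSTAT3 differed from NC replicates 1 and 2 in 7.13% and from NC replicates 3 and 4 in 9.85%.

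**Figure D3:**
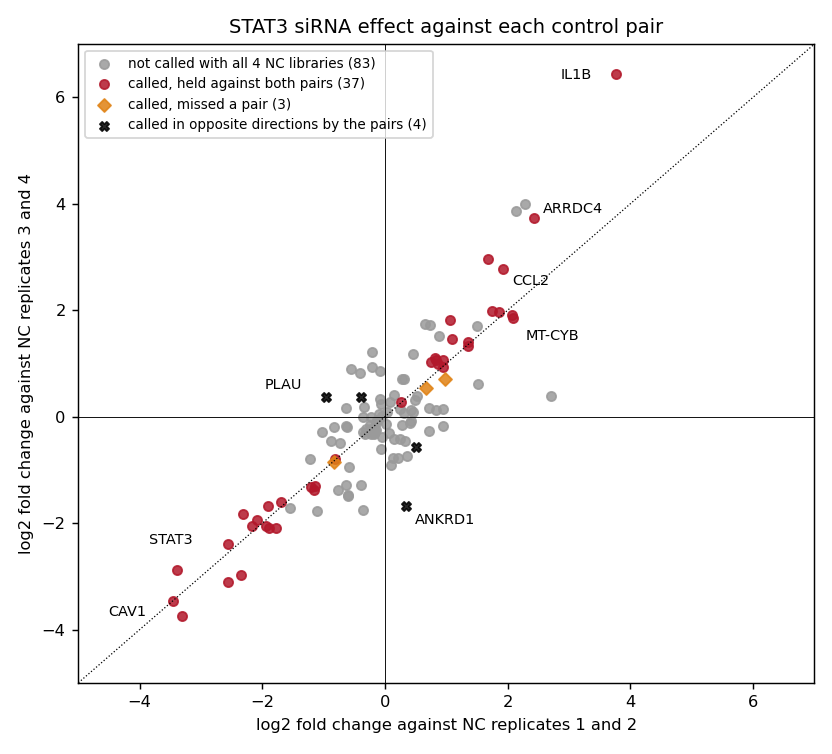
Log2 fold change of siSTAT3 against NC replicates 1 and 2 (x axis) and against NC replicates 3 and 4 (y axis) for listed transcripts averaging 2 CPM or more; the dotted line marks equal change. The 37 transcripts that held (red) lie in the lower left and upper right, with IL1B (3.77 and 6.45), ARRDC4 and IFI44L well above the line, 3 missed a pair (orange), and 4 were called in opposite directions (black crosses); IFI44 and CDK1, each at 0 CPM in at least 1 group, lie outside the axes.

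Of 8 transcripts of glycolysis and alpha-arrestins, 2 were higher, both of which held, and none was lower (median log2 fold change 0.10). HK2, the hexokinase that traps glucose in the cell (ENST00000290573.6), had 84.7, 93.6, 48.98 and 57.1 CPM in NC and 185 and 187 CPM in siSTAT3 and was 2.61-fold higher (log2 fold change 1.39 ± 0.25 (SE), adjusted p = 0.0345). ARRDC4, an alpha-arrestin of the family that restrains glucose uptake (ENST00000268042.6), had 4.68, 4.85, 1.69 and 2.15 CPM in NC and 27.1 and 24.01 CPM in siSTAT3 and was 7.64-fold higher (log2 fold change 2.93 ± 0.43 (SE), adjusted p = 0.0174), with 2.42 and 3.73 on the log2 scale against the NC pairs. In siHMGN5 ARRDC4 stood at 16.96 and 16.9 CPM (log2 fold change 2.34 ± 0.43, adjusted p = 0.0408; the controls are shared). The glucose transporter SLC2A1, at 62.97, 60.8, 117 and 128 CPM in NC and 96.7 and 106 CPM in siSTAT3, was not called (log2 fold change 0.14, adjusted p = 0.913). The call of ARRDC4 ended without either siSTAT3 library (adjusted p up to 0.1), and that of HK2 without NC replicate 1 or 4 or either siSTAT3 library (up to 0.171).

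All 13 mitochondrially encoded mRNAs, which specify subunits of the respiratory chain and of ATP synthase, were higher in siSTAT3 and held against both pairs. Together they took 6.16%, 7.29%, 5.75% and 5.82% of the reads in NC replicates 1 to 4 and 14.1% and 14.5% in the siSTAT3 libraries. The siHMGN5 libraries, a different knockdown with the same controls, had 10.999% and 12.8%. In the vector cells the share was 4.17% to 4.50% in NC_Vec and 3.95% to 3.96% in siSTAT3_Vec. MT-ND2, a subunit of complex I, had the largest log2 change, with 3556, 4573, 4439 and 4625 CPM in NC and 16769 and 17420.2 CPM in siSTAT3 (log2 fold change 1.99 ± 0.13 (SE), adjusted p = 0.00161). MT-CYB of complex III followed, with 1890.1, 2299, 2394 and 2564 CPM in NC and 8721 and 9096 CPM in siSTAT3 (log2 fold change 1.96 ± 0.13 (SE), adjusted p = 0.00157). MT-CO1, a core subunit of cytochrome c oxidase, had the smallest, with 14599, 17038, 13082 and 13065 CPM in NC and 26126 and 27236 CPM in siSTAT3 (log2 fold change 0.89 ± 0.13 (SE), adjusted p = 0.017). The 13 genes are made from shared precursor RNAs and are not independent of each other. Reads on short transcripts (under 300 bases) went from 1.15% to 1.26% in NC to 1.57% to 1.59% in siSTAT3. This share includes MT-ATP8 (207 bases) and MT-ND4L (297 bases), so it is not separate from the mitochondrial share. Without the 13 mitochondrial transcripts in the fit, a check chosen after seeing the data, 987 transcripts were higher and 2196 lower; what part the mitochondrial share had in the nuclear calls was not tested further. Leaving out either siSTAT3 library ended the calls of 7 of the 13 and leaving out replicate 2 that of MT-ATP8 as well (adjusted p up to 0.122).

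**Figure D4:**
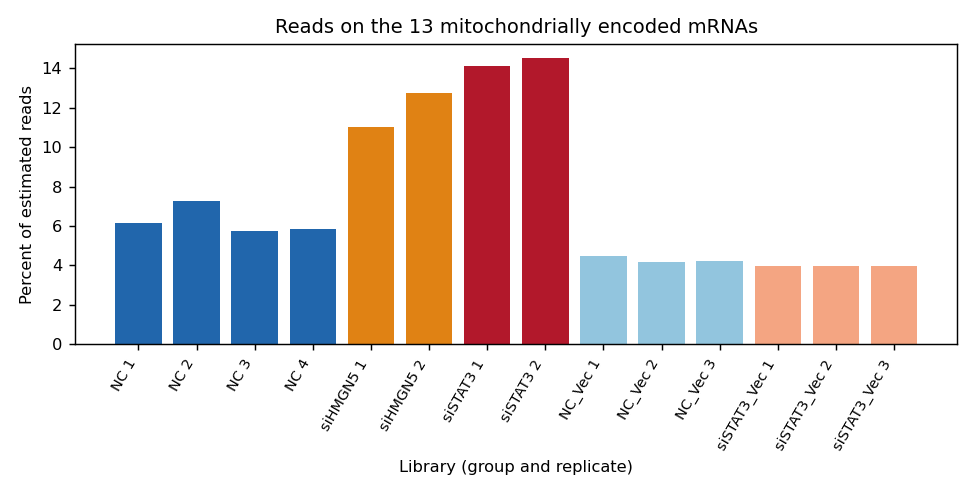
Percent of estimated reads on the 13 mitochondrially encoded mRNAs in each library, by group and replicate; each bar is 1 library. The siSTAT3 bars stand at 14.1% and 14.5% and those of siHMGN5 at 10.999% and 12.8%, above the NC bars at 5.75% to 7.29%, while the NC_Vec and siSTAT3_Vec bars stay between 3.95% and 4.50%.

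Of 6 control transcripts, 1 was called. HPRT1, a purine salvage enzyme, had 51.99, 50.5, 47.8 and 41.5 CPM in NC and 54.1 and 53.7 CPM in siSTAT3 (log2 fold change 0.17, adjusted p = 0.499). PGK1 of glycolysis had 132, 142, 130.3 and 129 CPM in NC and 105 and 109 CPM in siSTAT3 (-0.32, adjusted p = 0.0782), and the transferrin receptor TFRC had 51.2, 53.4, 98.96 and 127 CPM in NC and 92.2 and 109 CPM in siSTAT3 (0.28, adjusted p = 0.831). TFRC differed more between the NC pairs than between treatments. The transcripts listed for ACTB and GAPDH were at 4.55 and 3.76 CPM in NC, low for such widely expressed genes, so both are weak controls, and were not called (adjusted p = 0.382 and 0.973). EEF2, an elongation factor of translation, was called higher by a small amount, with 1056, 1049, 1002 and 1077 CPM in NC and 1259.9 and 1261 CPM in siSTAT3 (log2 fold change 0.27 ± 0.06 (SE), adjusted p = 0.0498). Its call ended without any 1 of the 6 libraries (adjusted p up to 0.312) and without the mitochondrial transcripts.

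The same siRNA target was then read in cells with the empty vector, in 6 libraries that share none with the comparison above. There 14.3% of 69768 transcripts were called in siSTAT3_Vec against NC_Vec, 7.2% higher and 7.07% lower. Of the 1952 lower transcripts that held and were tested there, 742 (38.0%) were lower again and 170 (8.71%) higher. Of the 172 lower ones that missed a pair, 41 (23.8%) were lower again and 7 (4.07%) higher. For higher transcripts, 255 of 770 that held (33.1%) and 38 of 205 that missed a pair (18.5%) were higher again, and 91 (11.8%) and 9 (4.39%) were lower. Experiment and vector change together here and cannot be told apart.

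Among the 19 nuclear listed transcripts that were lower and held, 10 were lower in the vector cells, 6 were higher and 3 were not called. STAT3 fell again, with 169, 145 and 149.8 CPM in NC_Vec and 28.7, 26.9 and 28.5 CPM in siSTAT3_Vec (log2 fold change -2.46 ± 0.07, adjusted p = 4.83e-06; difference between experiments -0.04 ± 0.11, adjusted p = 0.992). NT5E fell less, with 1415, 1319 and 1288 CPM in NC_Vec and 302, 286 and 314 CPM in siSTAT3_Vec (log2 fold change -2.16 ± 0.06, adjusted p = 4.83e-06; difference -1.33 ± 0.07, adjusted p = 6.94e-07). LIFR fell too, with a log2 fold change of -1.53 ± 0.11, adjusted p = 0.000118. HMGN5 was also lower, with 1.70, 2.63 and 3.46 CPM in NC_Vec and 0.573, 0.795 and 0.351 CPM in siSTAT3_Vec (-2.17 ± 0.33, adjusted p = 0.0042). CAV1, CAV2, ITGA2, CCN2, OSMR and CCNB1 were the other transcripts lower in both experiments. Log2 fold changes in the vector cells were -0.92 for CAV1, -0.33 for CAV2, -1.23 for ITGA2, -0.38 for OSMR and -0.95 for CCNB1. All but CCNB1 fell less than without the vector (difference -1.09 for CCN2). The call of CAV1 ended there without NC_Vec replicate 1 or siSTAT3_Vec replicate 2 or 3 (adjusted p up to 0.0755). BIRC5, PIK3CA and YAP1 were not called in the vector cells.

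The 6 with the opposite sign were OAS3, IFIT1, IFIT3, ICAM1, NRAS and FOS. OAS3 rose in the vector cells, with 133, 114 and 114 CPM in NC_Vec and 257, 249.6 and 229 CPM in siSTAT3_Vec (log2 fold change 1.02 ± 0.10, adjusted p = 0.000446). IFIT1 rose as well, with 80.05, 70.9 and 71.2 CPM in NC_Vec and 195, 210.3 and 201 CPM in siSTAT3_Vec (1.45 ± 0.11, adjusted p = 0.000188), and so did IFIT3, with 55.05, 53.3 and 51.4 CPM in NC_Vec and 191, 196 and 162 CPM in siSTAT3_Vec (1.78 ± 0.08, adjusted p = 1.98e-05). The vector cells thus showed the reverse of the no-vector cells for these 3 transcripts, and 10 of the 13 interferon-stimulated transcripts tested there were higher (1 was lower, median 1.44). ICAM1 rose from 79.1, 70.3 and 63.03 CPM in NC_Vec to 189, 165 and 163 CPM in siSTAT3_Vec (1.29 ± 0.10, adjusted p = 0.000205), and NRAS from 205, 187 and 193 CPM in NC_Vec to 338, 365 and 362 CPM in siSTAT3_Vec (0.86 ± 0.05, adjusted p = 5.36e-05). NC_Vec libraries held more ICAM1 than NC libraries, though levels were scaled separately in the 2 experiments.

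Of the 6 nuclear transcripts that were higher and held, IFI44L and ARRDC4 were higher in the vector cells, IL1B and CCL2 were lower and HK2 and EEF2 were not called. IFI44L had 20.1, 23.1 and 16.6 CPM in NC_Vec and 77.6, 82.4 and 78.2 CPM in siSTAT3_Vec (log2 fold change 1.99 ± 0.16, adjusted p = 0.000184; difference 0.17 ± 0.47, adjusted p = 0.991). CCL2 had 8.53, 6.65 and 10.2 CPM in NC_Vec and 4.23, 3.75 and 3.91 CPM in siSTAT3_Vec (-1.10 ± 0.17, adjusted p = 0.00487; difference 3.37 ± 0.34, adjusted p = 7.81e-05), and IL1B had 3.12, 3.06 and 2.57 CPM in NC_Vec and 0.441, 0.662 and 0.307 CPM in siSTAT3_Vec (-2.62 ± 0.41, adjusted p = 0.00441; difference 7.16 ± 0.97, adjusted p = 0.000626). None of the 13 mitochondrial transcripts was higher there, and MT-ND2 was lower (-0.52 ± 0.11, adjusted p = 0.0161). In a fit of all 17 RNA-seq libraries, chosen after seeing the data, the effect differed between experiments for 14 of the 19, 3 of the 6 and 13 of the 13. Over all transcripts it differed for 5.51%. That share is not a like background, because the listed transcripts were picked by their calls in the no-vector comparison, which is part of this contrast.

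**Figure D5:**
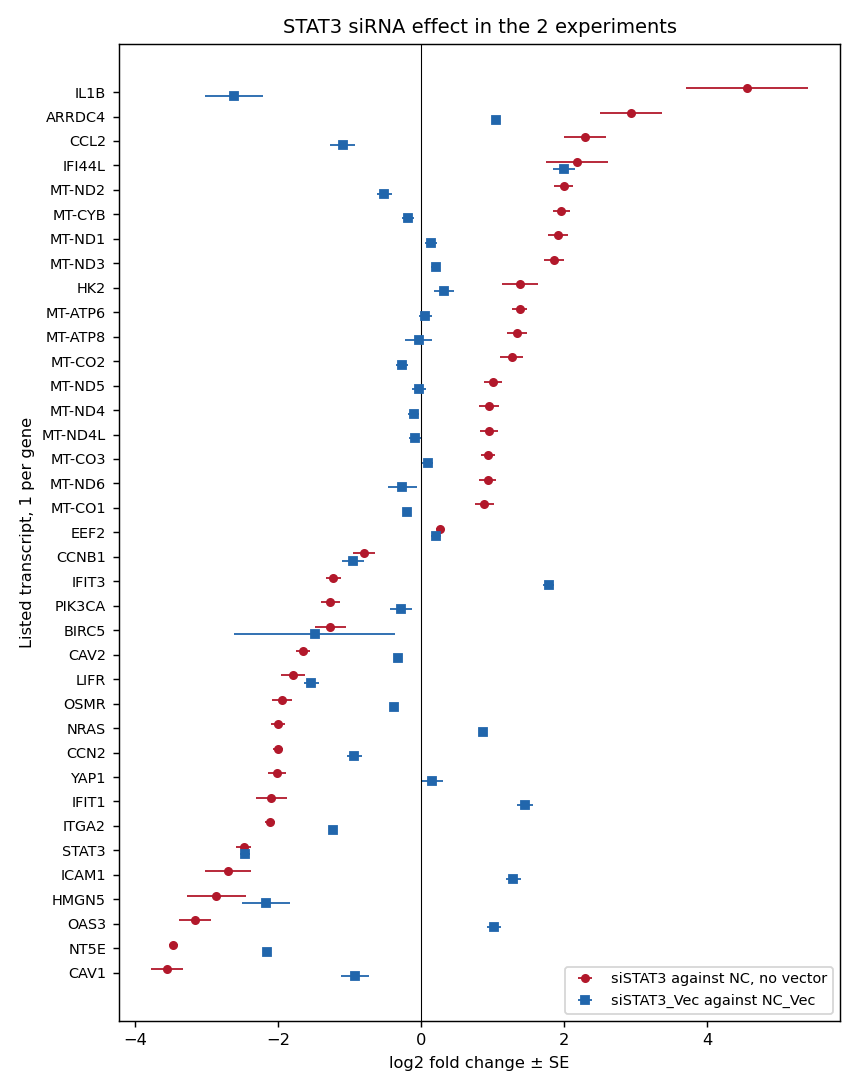
Log2 fold change ± SE of the 37 listed transcripts that held and averaged 2 CPM or more, in siSTAT3 against NC without vector (red circles) and in siSTAT3_Vec against NC_Vec (blue squares). STAT3 stands at -2.48 and -2.46, the mitochondrial transcripts lie to the right of 0 in red and close to 0 or to its left in blue, and OAS3, IFIT1, IFIT3, ICAM1, NRAS, IL1B and CCL2 lie on opposite sides of 0.

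Among transcripts that no table here pairs with a gene, the largest fitted changes were looked up for those that held, had a mean of at least 2 CPM and showed no overlap. ENST00000372088.7 lay at 33.3, 39.9, 57.4 and 50.3 CPM in NC and 0 and 0 CPM in siSTAT3, and ENST00000546260.5 at 45.8, 37.7, 46.9 and 36.4 CPM in NC and 0 and 0 CPM in siSTAT3. Set against 3 reads per library, they were at least 289-fold and at least 267-fold lower (adjusted p = 0.0012 and 0.000806). Bounds of this kind, here and below, cover counting error only. An estimated count of 0 can also arise where reads are assigned to another isoform, which was not tested. ENST00000394351.8 lay at 0, 0, 0 and 0 CPM in NC and 33.2 and 18.4 CPM in siSTAT3, and ENST00000313599.7 at 0, 0, 0 and 0 CPM in NC and 16.5 and 18.4 CPM in siSTAT3, at least 166-fold and at least 113-fold higher (adjusted p = 0.0112 and 0.0166). The first pair of IDs was higher in the vector cells (log2 fold change 2.26 and 1.80, adjusted p = 0.0218 and 1.29e-05). The calls of the 2 higher IDs ended without either siSTAT3 library (adjusted p up to 0.0624 and 0.169). Limma-voom ended the calls of ENST00000372088.7 (adjusted p = 0.0652) and ENST00000394351.8 (0.0563), and the replicate block that of ENST00000313599.7 (0.137).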

How the data were processed

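Poly(A) RNA-seq of 6 libraries (NC 4, siSTAT3 2) was analysed, with 2 siHMGN5 libraries in the same fit to share the spread and 9 libraries of the vector experiment fitted apart. Each deposited table gives 175775 Ensembl transcripts with length, effective length and a read count, the estimated count deposited by the authors, per the file headers. Salmon 1.4.0 and the builds GRCh38 and hg38 are named in the submitters' processing notes, beside CASAVA, Bowtie2 and HOMER; the transcript release and the mapping options are not given in the sources used here. Salmon shares a read among the transcripts it fits, so isoforms, paralogs and overlapping genes can trade reads, and such splits can move a transcript without any change of its gene.

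Estimated counts were rounded to whole numbers and tested with edgeR 4.0.16 in R 4.3.3 (TMM, filterByExpr, glmQLFit, glmQLFTest, Benjamini-Hochberg over all transcripts tested, threshold 0.05). SEs came from the log2 fold change and its F statistic, and CPM values are scaled by TMM within an experiment. The edgeR test was tested on simulated data. Alternatives were DESeq2 1.42.0, voom of limma 3.58.1, no filter on low counts, each NC pair, other libraries in the fit, a replicate block, an effective length offset and leaving out each library.

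The members and gene lists were chosen with earlier results of these data known. The IDs of 162 genes were written from knowledge. Of 147 nuclear ones with a gene span in RefSeq (GRCh38.p14), 146 were no longer than it (the exception was JUN), and all 13 mitochondrial lengths equalled those of RefSeq. Named with values were STAT3, HMGN5, SOCS3, IL6ST, JAK1 and the control genes, listed transcripts of at least 2 CPM that were called, and, per list, up to 4 others with the largest and smallest changes. Some genes of the lists and of this naming rule are not reported here and enter no list count. A few others (CCND1, EGFR, CAVIN1, EP300, SLC2A1, NFKB1, RELA, IL6 and the 4 called oppositely by the pairs) were added for their role after their values were seen. H3K27ac profiles and the HMGN5 vector group were not used, except that the latter lent its spread.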

Additional observations from a re-analysis of the deposited data

Results flagged for a closer look

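The effect of STAT3 siRNA differed between cells without and with the vector, by the interaction contrast in a fit of all 17 RNA-seq libraries (edgeR, adjusted p under 0.05), for the named transcripts below; each value is the log2 fold change of siSTAT3 against NC minus that of siSTAT3_Vec against NC_Vec. For transcripts of the interferon response and adhesion the difference was -4.21 for OAS3, -3.56 for IFIT1, -3.03 for IFIT3 and -4.01 for ICAM1. In signalling genes it was -2.88 for NRAS, -1.002 for PIK3CA and -1.58 for OSMR, and for the protease inhibitor TIMP1 it was -0.88. Among caveolar, adhesion and YAP genes it was -2.65 for CAV1, -1.35 for CAV2, -0.90 for ITGA2, -1.33 for NT5E, -2.19 for YAP1 and -1.09 for CCN2. Positive differences among nuclear genes were 7.16 for IL1B, 3.37 for CCL2, 1.87 for ARRDC4 and 0.58 for PGK1.

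All 13 mitochondrial transcripts differed as well. In complex I the difference was 1.75 for MT-ND1, 2.49 for MT-ND2, 1.64 for MT-ND3, 1.03 for MT-ND4, 1.01 for MT-ND4L, 1.02 for MT-ND5 and 1.17 for MT-ND6. It was 2.13 for MT-CYB, 1.06 for MT-CO1, 1.51 for MT-CO2, 0.82 for MT-CO3, 1.29 for MT-ATP6 and 1.35 for MT-ATP8. For the unnamed ENST00000372088.7 and ENST00000546260.5 the fitted values were -15.14 and -14.56, which depend on the prior count because both siSTAT3 libraries were at 0.

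In 2 of the transcripts 1 NC library stood apart from the other 3 by Dixon's criterion, which chance alone meets in about 1 of 20 groups. CDKN1A was low in NC replicate 1, at 20.99 CPM, and MT-ND3 was high in NC replicate 2, at 1246 CPM.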

How the results depend on the processing

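Against 1011 higher and 2170 lower transcripts, DESeq2 called 4039 and 6614, the contrast with NC replicates 3 and 4 3178 and 4143, and the replicate block 473 and 1149. In the siRNA experiment only NC has replicates 3 and 4, so the block left this contrast to NC replicates 1 and 2. With limma-voom (1664) and without a low-count filter (530), only the count of higher transcripts moved by over 1.5 times. The same was so for the contrast with NC replicates 1 and 2 (2069) and with only NC and siSTAT3 in the fit (561). Both pair contrasts kept all libraries of the siRNA experiment in the fit, with the NC pairs as separate groups. Leaving out 1 library gave 85 to 712 higher and 690 to 1649 lower; the lowest counts came without a siSTAT3 replicate, where the single library left takes its spread from the rest. The share of calls that were higher was 31.8%, with limma-voom 47.0%, against NC replicates 3 and 4 43.4%, and without a siSTAT3 replicate 10.7% or 10.97%. In the vector cells, counts without 1 library were 3406 to 4614 higher and 3588 to 3901 lower, and 3724 and 3792 with the replicate block, against 5020 and 4933.

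No named transcript that was called changed direction in any alternative run. Of 52 named results, 44 were called. Of these, 23 lost their call without siSTAT3 replicate 1, 25 without replicate 2, 7 or 8 without an NC replicate, 10 with the replicate block, 8 without the filter (TIMP1, IFI44L, CCNB1, CDKN1A, IL1B, FOSL1, HK2 and EEF2), 6 with only the compared groups, 2 with limma-voom and 1 with the length offset. Within groups, same-numbered libraries did not deviate together (correlation 0.0203 between siSTAT3 and NC replicates 1 and 2, and -0.0191 to 0.00185 in the vector cells). Each group was centred on its own mean first. This check therefore cannot tell whether the siSTAT3 libraries belong with 1 of the NC pairs. Sums of reads per gene were not run, since no table here pairs transcripts with genes. With 2 siSTAT3 libraries and control pairs that stand apart, a change that was not called may still exist.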
